A study of Mus musculus with 6 samples.

Results

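The insulin-like growth factor (IGF) family was examined in osteoclasts from Ano1fl/fl and Ctsk-Cre;Ano1fl/fl mice. It comprised the 10 genes Igf1, Igf2, Igf1r, Igf2r, Igfbp2, Igfbp3, Igfbp4, Igfbp5, Igfbp6 and Igfbp7, taken by gene name from the array, with every probe that carried the name. They had 19 probes, of 56591 probes and 37069 gene names in all. For 8 of the 10 genes at least 1 probe was bright enough to be tested, and 14 of the 19 probes were tested.

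IGF1 and IGF2 are secreted growth factors that signal through IGF1R, a receptor tyrosine kinase that acts through insulin receptor substrates, PI3K and Akt. IGF2R, also the receptor for mannose 6-phosphate, carries IGF2 and lysosomal enzymes to lysosomes. The IGF binding proteins hold the ligands outside cells, and proteases that cleave them set the ligands free. In bone, IGFs are made by osteoblasts and other cells, are stored in the matrix and are released when osteoclasts resorb it.

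The controls were Ano1fl/fl mice, in which both copies of Ano1, the gene of a calcium-activated chloride channel, carry loxP sites. The other group, Ctsk-Cre;Ano1fl/fl, had the same floxed alleles and in addition Cre recombinase under Ctsk, the gene of the osteoclast protease cathepsin K. Controls were littermates, bone marrow cells were given RANKL, the cytokine that drives osteoclast formation, for 5 days, and 3 mice a group gave 1 one-colour array each. The mice of the general methods were young adults, and no age is stated for these arrays. Cells that had not switched on Ctsk would keep their Ano1 alleles, and the RNA came from the whole culture, so fewer cells of a type and less RNA per cell cannot be told apart.

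All 6 arrays lay on 1 slide and were scanned once, with 33480 to 34951 of 59305 transcript spots well above background and 0 saturated. The Ano1 probe was well above background on 0 of the 6 arrays, so it does not check the genotypes, and every direction below rests on the labels. Of 14 osteoclast marker genes, 13 were higher and 1 was lower on the Ctsk-Cre;Ano1fl/fl arrays in limma, with log2 differences of 3.17 for Ctsk and 4.36 for Mmp9. For osteoclast markers in such osteoclasts the study describes the opposite direction. Arrays of a group correlated at 0.994 to 0.997 and arrays of different groups at 0.944 to 0.950, across probes, which are not independent replicates.

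The sequences below are the promoters of the member with the largest rise (Igfbp7), of the member with the largest fall (Igfbp4) and of the ligand that was tested (Igf1). Each is the 250 bases before the RefSeq gene start, in the build GRCm38.p6, written 5′ to 3′ on the strand of the gene. Capitals mark matches on either strand to 1 of 3 motifs. The TATA box was searched as the letters TATAAA, which 12.4% of 32851 such windows of the table held. The GC box was searched as GGGCGG, which 32.7% held. The AP-1 site was searched as TGANTCA, where N is any base, which 6.75% held. Overlapping matches run together in capitals, and a match is a description, not a site in use.
Igfbp7, chr5:77408046-77408295, minus strand: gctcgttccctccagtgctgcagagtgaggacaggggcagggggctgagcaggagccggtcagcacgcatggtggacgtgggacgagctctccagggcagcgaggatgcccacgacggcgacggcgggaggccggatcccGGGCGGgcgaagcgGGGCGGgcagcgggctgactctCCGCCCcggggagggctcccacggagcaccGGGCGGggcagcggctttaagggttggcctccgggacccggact
Igfbp4, chr11:99040994-99041243, plus strand: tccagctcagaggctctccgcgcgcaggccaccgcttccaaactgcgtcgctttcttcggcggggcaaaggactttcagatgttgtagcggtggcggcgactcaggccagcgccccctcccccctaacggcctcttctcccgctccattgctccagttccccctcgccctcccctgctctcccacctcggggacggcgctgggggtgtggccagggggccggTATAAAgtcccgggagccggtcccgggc
Igf1, chr10:87860861-87861110, plus strand: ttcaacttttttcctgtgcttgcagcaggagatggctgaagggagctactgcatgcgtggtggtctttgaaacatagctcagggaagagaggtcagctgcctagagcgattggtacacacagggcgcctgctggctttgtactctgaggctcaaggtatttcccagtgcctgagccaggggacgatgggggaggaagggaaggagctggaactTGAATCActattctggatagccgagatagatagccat

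The Igfbp7 window held 4 matches to the GC box and neither other motif, and its GC content was 74.0%, against a median of 52.4% over all windows. The Igfbp4 window, with a GC content of 69.2%, held a TATA box match with its first base 28 bases before the gene start. The Igf1 window held an AP-1 match 37 bases before the start and had a GC content of 52.8%. All 10 members had at least 1 promoter in the table, 14 in all. Of these, 2 held a TATA box match (Igfbp4 and Igfbp6), 6 a GC box match (Igfbp7, Igfbp2, Igf1r, Igf2r and 2 of Igf2) and 2 an AP-1 match (Igf1 and Igfbp2). In gene order Igfbp2 lies next to Igfbp5 on chromosome 1, Igfbp3 next to Igfbp1 on chromosome 11 and Igf2 next to Ins2 on chromosome 7.

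What each probe reads is shown with the Igfbp4 probe that had the lower adjusted p. It spans 60 bases at chr11:98909591-98909650 of the build mm9, as the array files give it, and 1 of its 3 forward frames had no stop codon.
Igfbp4 probe A_51_P398971: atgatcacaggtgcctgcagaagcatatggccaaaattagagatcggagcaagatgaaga
Positions of all probes below are those of the array files in mm9, which do not name exon, intron or untranslated region. Of the 19 probes, 13 had an accession that matched the RefSeq gene table, all under the member's symbol.

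Values are log2 of the processed signal after quantile normalization, and a difference is Ctsk-Cre;Ano1fl/fl minus Ano1fl/fl. A probe passed at an adjusted p under 0.05, with Benjamini-Hochberg adjustment over 31848 tested probes. In limma, 3 member probes passed as higher and 6 as lower on the Ctsk-Cre;Ano1fl/fl arrays, and 5 did not pass. Of all tested probes, 21.8% passed as higher and 30.6% as lower, 52.4% in either direction. Past 2-fold, 1 member probe was higher and 2 were lower, against 8.91% and 8.11% of all tested probes. The groups did not overlap for 11 of the 14 member probes and for 64.0% of all tested probes. With 1 probe a gene, the brightest, 3 of 8 member genes were higher and 2 were lower, against 23.0% and 28.5% of 20645 genes. The median difference was -0.34 over the 14 member probes and -0.09 over all tested probes.

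**Figure D1:**
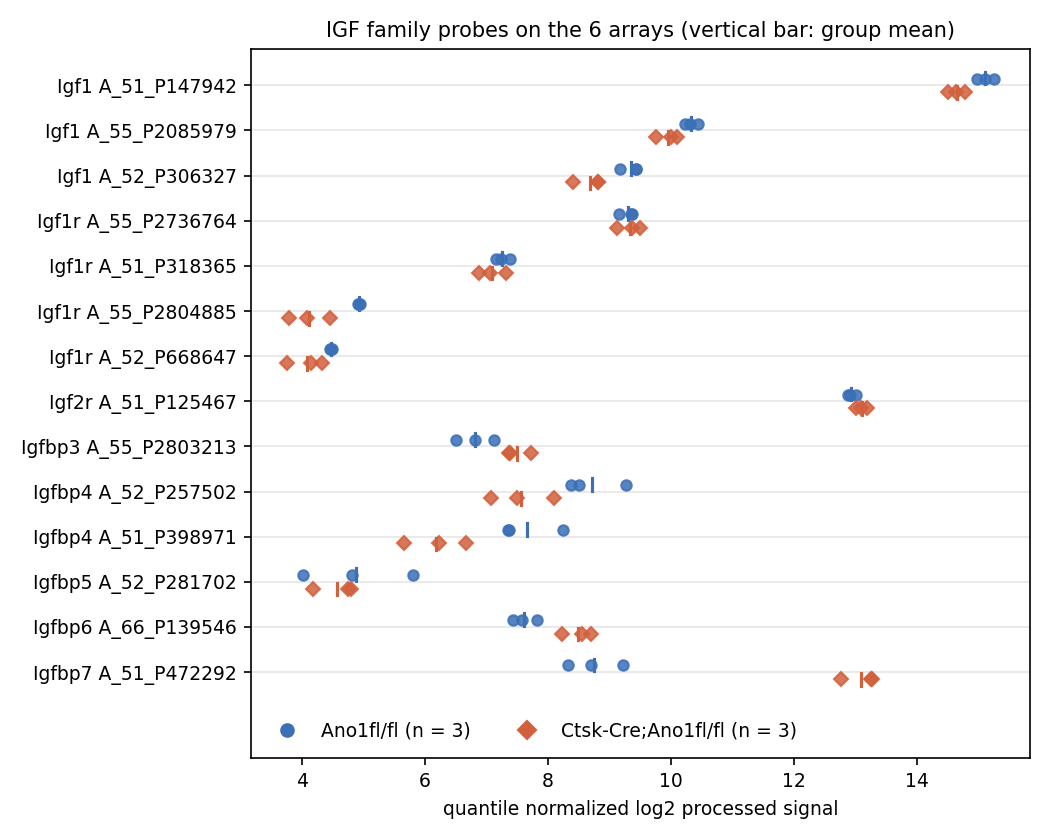
Quantile normalized log2 processed signal (x axis) of the 14 tested probes of the IGF family (y axis, gene and probe) on 3 Ano1fl/fl arrays (circles) and 3 Ctsk-Cre;Ano1fl/fl arrays (diamonds), with a vertical bar at each group mean. The Igfbp7 probe lay between 8.32 and 9.22 in controls and between 12.76 and 13.26 on the Ctsk-Cre;Ano1fl/fl arrays. Levels of different probes cannot be set against each other.

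Igf1, the ligand made by liver and by many tissues for local use, was lower on the Ctsk-Cre;Ano1fl/fl arrays at all 3 of its probes. The RefSeq probe A_51_P147942 (NM_010512, chr10:87393516-87393575) read 15.25, 15.10 and 14.97 on Ano1fl/fl arrays 1 to 3 and 14.78, 14.64 and 14.50 on Ctsk-Cre;Ano1fl/fl arrays 1 to 3. The groups did not overlap, and the level was 1.39-fold lower, a log2 difference of -0.47 (SE 0.11, limma adjusted p = 0.0135). The probe A_52_P306327 of the cDNA clone AK050118 (chr10:87325382-87325441) read 9.43, 9.18 and 9.43 in controls and 8.81, 8.81 and 8.41 on the other arrays. Its difference was -0.67 (SE 0.14, limma adjusted p = 0.0084), again with no overlap, and it passed in all 15 alternatives in which it could be tested.

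The probe A_55_P2085979 for another Igf1 transcript (NM_184052, chr10:87378456-87378515) read 10.43, 10.22 and 10.31 against 9.99, 10.10 and 9.76. Its difference was -0.37 (SE 0.11, limma adjusted p = 0.0325), with no overlap, but it passed in only 7 of 15 alternatives. It was lost without Ano1fl/fl array 1 (adjusted p = 0.0961), Ano1fl/fl array 3 (0.0783), Ctsk-Cre;Ano1fl/fl array 1 (0.0629) or Ctsk-Cre;Ano1fl/fl array 3 (0.0785). All 3 Igf1 probes kept their sign in every alternative. The arrays lie in 2 rows of the slide, and with the row as a block, where only the row that holds both groups bears on the difference and that row has 1 control array, Ano1fl/fl array 3, the RefSeq probe had -0.33 (adjusted p = 0.152).

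For Igf2, the ligand best known for its role in fetal growth, both probes were well above background on 0 of the 6 arrays. These are A_55_P2118173 (chr7:149839661-149839720) and A_51_P516833 (chr7:149837115-149837174). Neither was tested, and no fold is given.

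Igf1r had 4 probes, and the pair for its RefSeq transcript did not pass. Probe A_55_P2736764 (chr7:75371371-75371430) read 9.16, 9.37 and 9.36 in controls and 9.50, 9.36 and 9.11 on the Ctsk-Cre;Ano1fl/fl arrays. The groups overlapped, and the difference was 0.032, with a 95% interval of -0.26 to 0.33 (limma adjusted p = 0.846). Its sign turned without Ano1fl/fl array 1 (-0.036) and without Ctsk-Cre;Ano1fl/fl array 1 (-0.054). Probe A_51_P318365 (chr7:75371556-75371615) had a difference of -0.17, with a 95% interval of -0.49 to 0.15 (limma adjusted p = 0.312).

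The other Igf1r probes read cDNA clones that the array assigns to the gene, near the limit of detection. Probe A_55_P2804885 (clone AK155079, chr7:75332796-75332855) read 4.92, 4.93 and 4.95 in controls and 4.45, 3.78 and 4.09 on the Ctsk-Cre;Ano1fl/fl arrays. It was well above background on all 3 control arrays and on 1 of the others, and its difference was -0.82 (SE 0.17, limma adjusted p = 0.00703), or -0.84 with the slide row as a block (adjusted p = 0.0561) and -0.23 with normexp background correction, which adds an offset to every spot. Probe A_52_P668647 (clone AK044980, chr7:75332515-75332574) read 4.46, 4.49 and 4.47 against 3.75, 4.33 and 4.15, and was well above background on 2 Ctsk-Cre;Ano1fl/fl arrays. Its difference of -0.40 (SE 0.15) did not pass (limma adjusted p = 0.065), and without Ctsk-Cre;Ano1fl/fl array 2 it was -0.52 (adjusted p = 0.0271). Thus 1 of the 4 Igf1r probes passed, and whether the probes differ from each other was not tested.

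Igf2r, the lysosomal sorting receptor, was read by A_51_P125467 (chr17:12875253-12875263 as the files give it, which is shorter than the probe). It read 13.00, 12.91 and 12.87 in controls and 13.08, 13.19 and 13.01 on the Ctsk-Cre;Ano1fl/fl arrays. The groups did not overlap, but the difference of 0.17, with a 95% interval of -0.03 to 0.37, did not pass (limma adjusted p = 0.137).

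Among the binding proteins, Igfbp7 had the largest difference of the family. IGFBP7 is a secreted protein that binds IGFs weakly and is found in vessel walls and matrix. Its probe A_51_P472292 (chr5:77778355-77778414) read 9.22, 8.70 and 8.32 on Ano1fl/fl arrays 1 to 3 and 13.26, 13.24 and 12.76 on Ctsk-Cre;Ano1fl/fl arrays 1 to 3. All Ctsk-Cre;Ano1fl/fl arrays lay above all controls by more than the whole spread within either group. Igfbp7 was 20.3-fold higher, a log2 difference of 4.34 with a 95% interval of 3.73 to 4.95 (limma adjusted p = 6.15e-05). Of all tested probes, 0.889% had a rise at least as large. Over 16 alternatives the Igfbp7 difference was 4.13 to 4.77 and it always passed.

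Igfbp6, which prefers IGF2 to IGF1, was also higher. Probe A_66_P139546 (chr15:101979852-101979911) read 7.81, 7.57 and 7.43 in controls and 8.22, 8.70 and 8.56 on the Ctsk-Cre;Ano1fl/fl arrays, with no overlap. The rise was 1.85-fold, a difference of 0.89 (SE 0.16, limma adjusted p = 0.0042), and it passed in all 16 alternatives. Igfbp3, the main carrier of IGFs in blood, read 7.12, 6.80 and 6.50 against 7.38, 7.36 and 7.73 at A_55_P2803213 (chr11:7106193-7106252). It rose 1.60-fold, a difference of 0.68 (SE 0.18, limma adjusted p = 0.0208), with no overlap. The Igfbp3 call was lost in 6 of 16 alternatives, among them those without Ano1fl/fl array 2 (adjusted p = 0.06), Ano1fl/fl array 3 (0.0518) or Ctsk-Cre;Ano1fl/fl array 3 (0.0587). The other Igfbp3 probe, A_55_P1992715, was well above background on 0 of the 6 arrays.

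Igfbp4, which holds back IGF action and is cut by the protease PAPP-A, was the binding protein that fell, and both of its probes passed. Probe A_51_P398971, whose sequence is given above, read 8.24, 7.37 and 7.35 in controls and 6.66, 6.23 and 5.66 on the Ctsk-Cre;Ano1fl/fl arrays. The level was 2.76-fold lower, a difference of -1.47 (SE 0.33, limma adjusted p = 0.0111), with no overlap. Probe A_52_P257502 (chr11:98913334-98913393) read 9.27, 8.38 and 8.51 against 8.10, 7.50 and 7.07, with no overlap. It was 2.24-fold lower, a difference of -1.16 (SE 0.33, limma adjusted p = 0.0252). In both groups array 1 was the highest at both probes.

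The Igfbp4 fall kept its sign in every alternative, from -1.71 to -0.97 at the first probe and from -1.44 to -0.89 at the second. The second probe did not pass without Ano1fl/fl array 1 (-0.89, adjusted p = 0.0653), Ctsk-Cre;Ano1fl/fl array 2 (-1.13, 0.0654) or Ctsk-Cre;Ano1fl/fl array 3 (-0.92, 0.0662). With the slide row as a block, which sets 1 control array against the 3 Ctsk-Cre;Ano1fl/fl arrays, neither Igfbp4 probe passed, with -1.16 (adjusted p = 0.118) and -0.95 (0.191). With the methods' t-test after Benjamini-Hochberg adjustment, which leaves the differences as they are, neither passed either (limma's moderation left out, adjusted p = 0.0512 and 0.0853). In all, the call was lost in 2 of 15 alternatives at A_51_P398971 and in 6 of 16 at A_52_P257502.

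Igfbp5, a binding protein that attaches to bone matrix, varied more within the groups than between them. Probe A_52_P281702 (chr1:72904829-72904888) read 5.81, 4.81 and 4.02 in controls and 4.79, 4.75 and 4.18 on the Ctsk-Cre;Ano1fl/fl arrays. It was well above background on 2 control arrays and all 3 others, and its difference of -0.30, with a 95% interval of -1.37 to 0.76, did not pass (limma adjusted p = 0.589). The sign turned without Ano1fl/fl array 1 (0.16). The other probe, A_66_P101782, was well above background on 0 of the 6 arrays. Igfbp2, another serum carrier, was read by A_55_P2056729 (chr1:72898677-72898736), which was well above background on 1 control array and on 0 Ctsk-Cre;Ano1fl/fl arrays, and was not tested.

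**Figure D2:**
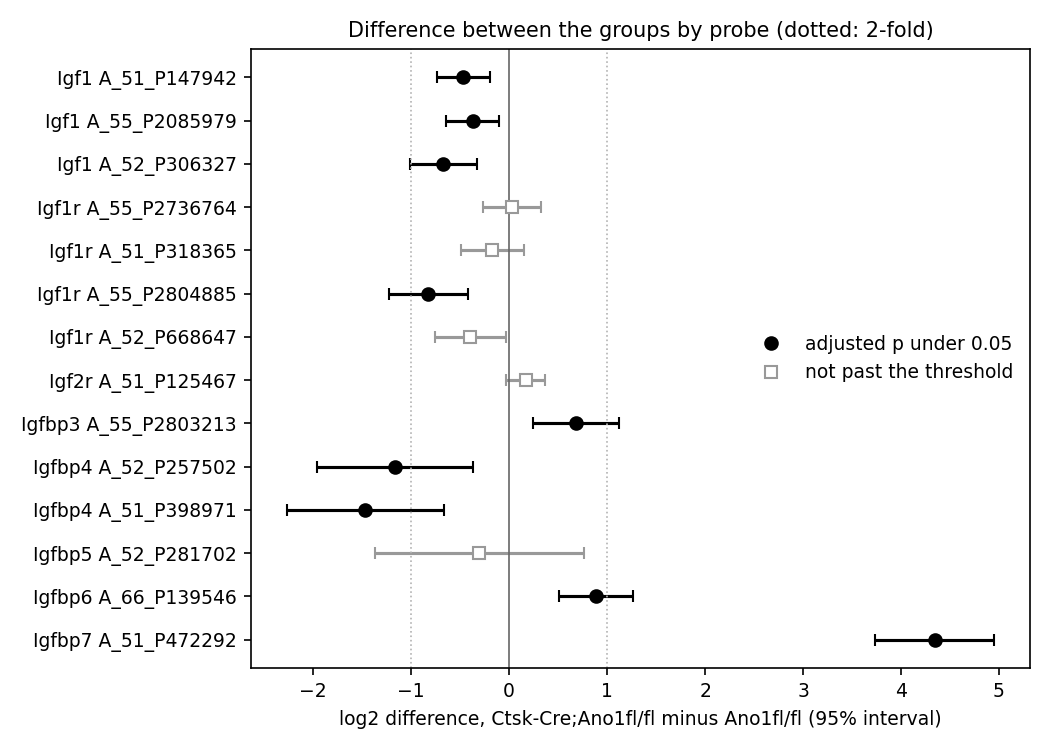
Log2 difference, Ctsk-Cre;Ano1fl/fl minus Ano1fl/fl (x axis), of the 14 tested probes (y axis), with 95% intervals from limma. Filled circles passed at an adjusted p under 0.05, open squares did not, and dotted lines mark 2-fold. The probes of Igf1 and Igfbp4 lie below 0, and that of Igfbp7 stands at 4.34.

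Within the controls, all 6 tested binding protein probes were highest on Ano1fl/fl array 1, where 38.7% of all tested probes and 61.9% of 21 stromal and osteoblast marker genes were highest. On the Ctsk-Cre;Ano1fl/fl arrays, 4 of the 6 probes were highest on array 1, against 34.5% of all tested probes and 71.4% of the stromal and osteoblast genes. The exceptions there were Igfbp6, highest on array 2, and Igfbp3, highest on array 3. These counts rest on 3 arrays a group, and probes of 1 array share their RNA.

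**Figure D3:**
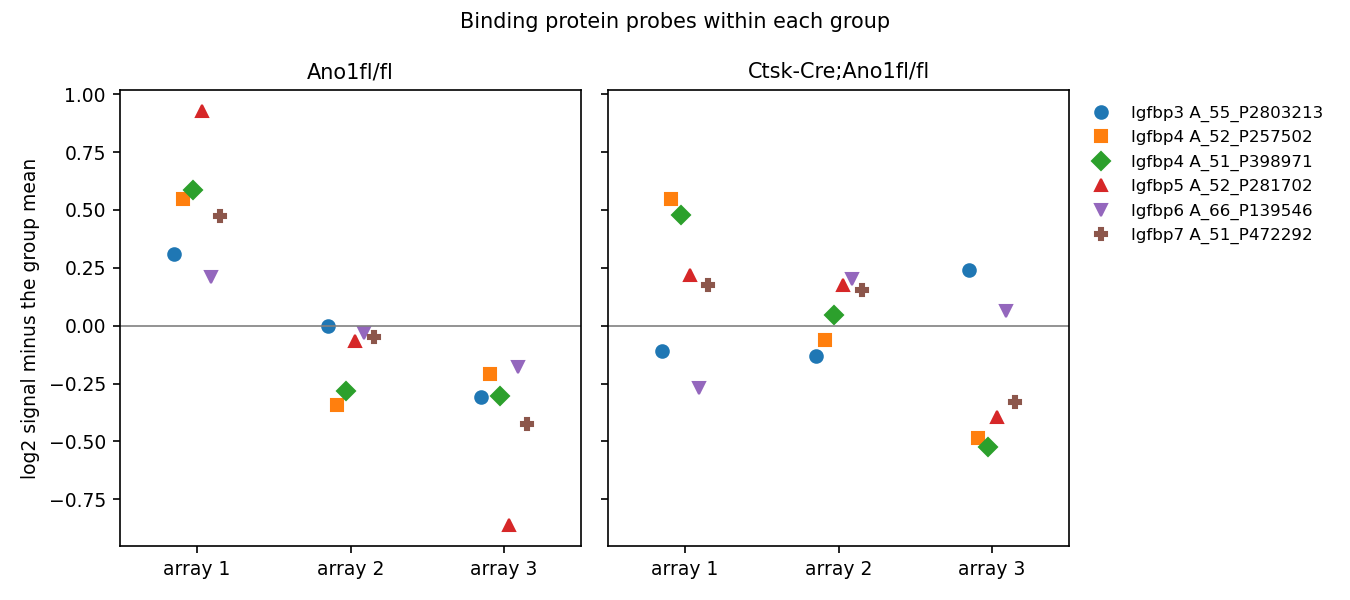
Log2 signal of the 6 tested binding protein probes minus the mean of their group (y axis) on arrays 1 to 3 of Ano1fl/fl (left) and Ctsk-Cre;Ano1fl/fl (right), 1 symbol a probe. On Ano1fl/fl array 1 all 6 probes lie above their group mean, and Igfbp5 spans the widest range.

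Marker genes of cell types were read on the same arrays. Of 21 tested stromal and osteoblast genes, 17 were higher and 2 were lower, with a median difference of 3.94. The summed linear signal of the 22 listed genes was 24641 to 27113 on control arrays and 105294 to 156560 on Ctsk-Cre;Ano1fl/fl arrays. On all 3 control arrays 18 of the 22 genes were well above background, and on all 3 Ctsk-Cre;Ano1fl/fl arrays 21 were. Lum, Pdgfra and Bglap, the osteocalcin gene, were well above background on 0 control arrays, and Bglap was so on 1 Ctsk-Cre;Ano1fl/fl array. Igfbp7 is itself a gene of stromal and endothelial cells, and the part of these cells in its rise, or in those of Igfbp3 and Igfbp6, was not tested.

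For 14 osteoclast genes the summed signal was 222980 to 240666 in controls and 624289 to 706342 on the Ctsk-Cre;Ano1fl/fl arrays. Of 11 macrophage genes, which mark cells that make Igf1, 2 were higher, 3 were lower and 6 did not pass, with summed signals of 535596 to 557640 against 562886 to 619079. Of 10 neutrophil genes 1 was higher and 7 were lower, with summed signals of 320315 to 337289 against 212422 to 264896. Of 7 tested endothelial genes 1 was higher and 3 were lower, of 4 tested adipocyte genes 1 and 1, and of 3 tested chondrocyte genes 1 and 0. The part of these cells in the lower Igf1 and Igfbp4 levels was not tested.

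By the smallest root mean square difference of centred log2 values over the 6 arrays, the genes most like Igfbp7, of 12743 candidates, were Hspb1 (0.149), Timp1 (0.156) and Wisp2 (0.190). Hspb1 encodes a small heat shock protein, Timp1 an inhibitor of metalloproteinases and Wisp2 a member of the CCN family. Their log2 differences were 4.09, 4.45 and 4.12. The genes most like the brightest Igfbp4 probe were Tmem119 (0.187), Pald1 (0.204) and Shb (0.216), with differences of -1.11, -1.12 and -1.22. The measure takes in the difference between the groups, so likeness is a description over these 6 arrays.

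The other genes of the pathway were read in 5 lists, each gene by its brightest probe. Of 76 tested genes 29 were higher and 12 were lower in limma, with a median difference of 0.16, where 23.0% of all genes were higher and 28.5% lower with a median of -0.06. Without Ctsk-Cre;Ano1fl/fl array 3 the lower count was 7, and with the slide row as a block it was 3. Where 1 group had no array with the gene well above background, its fold is given as at least a value, from the dimmest signal that still counted as well above background on each of that group's arrays. These limits hold on the scale of the processed signal. Normexp correction, which adds an offset of 50 to every spot, and the deposited value table, which keeps the background, both gave smaller differences for dim genes. The normexp values of the named genes that moved by more than 1.5-fold are given with each list, and all of them kept their sign and passed.

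The insulin family list, of other ligands, receptors and binding proteins, had 5 tested genes of 11 on the array. Of the tested genes only Igf2bp2, an RNA-binding protein named for its binding to Igf2 transcripts, passed as higher. It read 8.29, 8.68 and 8.39 in controls and 10.46, 10.82 and 10.56 on the Ctsk-Cre;Ano1fl/fl arrays, a difference of 2.16 (SE 0.14, limma adjusted p = 9.26e-05). Insr, the insulin receptor, had -0.03 (adjusted p = 0.89), Igf2bp3 -0.02 (0.876), Insl6, a relative of insulin and relaxin, 0.21 (0.0894) and Insrr -0.22 (0.0809). The median of the list was -0.02. Igfbp1, Igfals, which encodes the acid-labile subunit of the serum IGF complex, Ins1 and Ins2 were not bright enough to be tested. Nor was Igf2bp1, which was well above background on 0 control arrays and 1 Ctsk-Cre;Ano1fl/fl array, with groups that did not overlap.

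Of 11 tested proteases of the binding proteins and their inhibitors, 6 were higher, 2 were lower and 3 did not pass, with a median of 1.1. Pappa, whose product cleaves IGFBP4, was not well above background on any control array and read 7.43, 6.17 and 6.41 on the Ctsk-Cre;Ano1fl/fl arrays, at least 6.51-fold higher (limma adjusted p = 0.000473). Pappa2, its relative that cleaves IGFBP3 and IGFBP5, was at least 1.61-fold higher at 1 of its 4 probes (adjusted p = 2.78e-05), the other 3 not being bright enough to test. Stc2, which encodes an inhibitor of PAPP-A, rose from 3.49, 4.83 and 3.28 to 8.38, 8.58 and 8.61, a difference of 4.66 (SE 0.39, adjusted p = 0.000237), being well above background on 1 control array. Both Stc1 probes were well above background on 0 of the 6 arrays.

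The gelatinase gene Mmp2 was at least 25.0-fold higher, with 9.11, 8.56 and 8.17 on the Ctsk-Cre;Ano1fl/fl arrays and no control array well above background (adjusted p = 9.07e-05). The serine protease genes of the Htra family went in different directions. Htra1 rose by 1.1 (SE 0.14, limma adjusted p = 0.00109) and Htra4 was at least 1.84-fold higher (0.00257), while Htra3 fell from 7.92, 8.02 and 7.75 to 6.64, 5.85 and 5.96, a difference of -1.74 (0.000983). Mmp7, the matrilysin gene, was well above background on 0 Ctsk-Cre;Ano1fl/fl arrays and at least 2.40-fold lower (1.26e-05). With normexp the log2 differences were 1.28 for Pappa, 0.41 for Pappa2, 2.48 for Stc2, 2.58 for Mmp2, 0.44 for Htra4 and -0.55 for Mmp7. Adam9, Adam12 and Ctsd did not pass, with -0.02, 0.45 and 0.09.

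Genes whose products hold an IGFBP-like domain, most of them of the CCN family of matrix proteins, were higher in 7 of 8 tested and lower in 0, with a median difference of 3.62. Wisp1 was not well above background on any control array and read 10.55, 10.23 and 9.83 on the Ctsk-Cre;Ano1fl/fl arrays, at least 75.4-fold higher (limma adjusted p = 1.28e-05), while its other probe was not bright enough to test. Ctgf, connective tissue growth factor, rose from 7.90, 7.66 and 7.05 to 13.45, 13.11 and 13.08, a difference of 5.68 (SE 0.23, adjusted p = 1.8e-05). Cyr61 rose by 4.95 (SE 0.25), Wisp2 by 4.12 (SE 0.20), Esm1, a proteoglycan gene of endothelium, by 3.11 (SE 0.38) and Crim1 by 3.07 (SE 0.16), with adjusted p from 3.22e-05 to 0.000946. Esm1 was well above background on only 1 control array. Nov was at least 1.49-fold higher (0.00199), and Kazald1 had 0.28 (0.0699). With normexp the log2 differences were 4.06 for Wisp1, 3.24 for Cyr61, 2.81 for Wisp2, 1.11 for Esm1 and 0.35 for Nov. The CCN genes are made by stromal cells, whose marker values are given above, and the part of these cells was not tested.

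Of 39 tested receptor adaptors and signalling genes, 12 were higher, 7 were lower and 20 did not pass, with a median of 0.09. The docking protein genes Irs1 and Irs2, which couple IGF1R to PI3K, both rose. Irs1 was not well above background on any control array and read 7.23, 6.95 and 6.65 on the Ctsk-Cre;Ano1fl/fl arrays, at least 7.87-fold higher (limma adjusted p = 2.19e-05), and Irs2 rose by 1.11 (0.000347). Among adaptors and feedback genes that can restrain the receptor, Grb10 rose from 3.71, 4.54 and 3.93 to 6.74, 7.67 and 7.13 (a difference of 3.12, SE 0.30, adjusted p = 0.000378) and Socs3 from 11.24, 11.35 and 11.17 to 14.48, 14.39 and 14.48 (3.20, SE 0.08, 4.96e-06). Their relatives Grb14 (-0.11, adjusted p = 0.853) and Socs2 (-0.12, 0.269) did not pass. Grb10 was well above background on only 1 control array. With normexp the difference was 1.45 for Irs1 and 1.38 for Grb10.

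Socs1 rose by 1.26, Foxo1, a transcription factor that Akt keeps out of the nucleus, by 1.14, and Eif4ebp1, a repressor of translation that mTOR inactivates, by 1.37. Ptpn1, a phosphatase of the receptor, rose by 0.90. All 7 genes that fell changed by less than 2-fold. Among them, the kinase genes Akt2 (-0.35) and Pik3ca (-0.39) and the PI3K subunit gene Pik3r2 (-0.40) had limma adjusted p from 0.00767 to 0.0104, but the other probes of Akt2 (-0.22 and 0.26) and Pik3r2 (0.13) did not pass. Inppl1, a lipid phosphatase gene, had -0.42 (0.0195), but 0.0512 without Ano1fl/fl array 1 and 0.0586 without Ctsk-Cre;Ano1fl/fl array 3. The other Inppl1 probe also passed as lower (-0.58, limma adjusted p = 0.0137). Pik3r1 had -0.57 (0.0332), and 0.0543 to 0.101 when any array but Ctsk-Cre;Ano1fl/fl array 2 was left out. Foxo3 had -0.28 (0.0495) at the only 1 of its 3 probes to pass, and 0.0613 to 0.131 when any array but Ano1fl/fl array 2 was left out. Akt1 had -0.07 (adjusted p = 0.522).

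Among 13 genes of IGF2R's lysosomal sorting route, 3 were higher, 3 were lower and 7 did not pass, with a median of -0.02. Gnptab, whose product makes the mannose 6-phosphate tag that IGF2R binds, read 11.59, 11.69 and 11.69 in controls and 12.68, 13.00 and 12.79 on the Ctsk-Cre;Ano1fl/fl arrays, a difference of 1.17 (SE 0.10, limma adjusted p = 0.000273). Gga2, an adaptor of the sorting route, had 0.54 (0.0095) at its brightest probe and 0.58 (0.00482) at another, but -0.71 (0.0295) at A_55_P2714632, so its probes disagreed. Plaur, the urokinase receptor gene, rose by 0.48 (0.0389). Gnptg, the other subunit gene of that enzyme, had -0.37 (0.00969), M6pr, the smaller mannose 6-phosphate receptor, -0.29 (0.0171) and Sort1 -0.49 (0.0437), and all 3 passed as lower. Other probes did not all pass, with -0.16 (0.213) and 0.02 (0.876) for M6pr and -0.01 (0.941) and -0.86 (0.00687) for Sort1. M6pr did not pass without Ano1fl/fl array 2 (0.0559), Ano1fl/fl array 3 (0.0578) or Ctsk-Cre;Ano1fl/fl array 3 (0.0552). Sort1 did not pass without Ano1fl/fl array 1 (0.123), Ano1fl/fl array 3 (0.108), Ctsk-Cre;Ano1fl/fl array 2 (0.0712) or Ctsk-Cre;Ano1fl/fl array 3 (0.11), nor Plaur without Ano1fl/fl array 1 (0.0735), Ano1fl/fl array 3 (0.0749), Ctsk-Cre;Ano1fl/fl array 1 (0.103) or Ctsk-Cre;Ano1fl/fl array 2 (0.102).

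**Figure D4:**
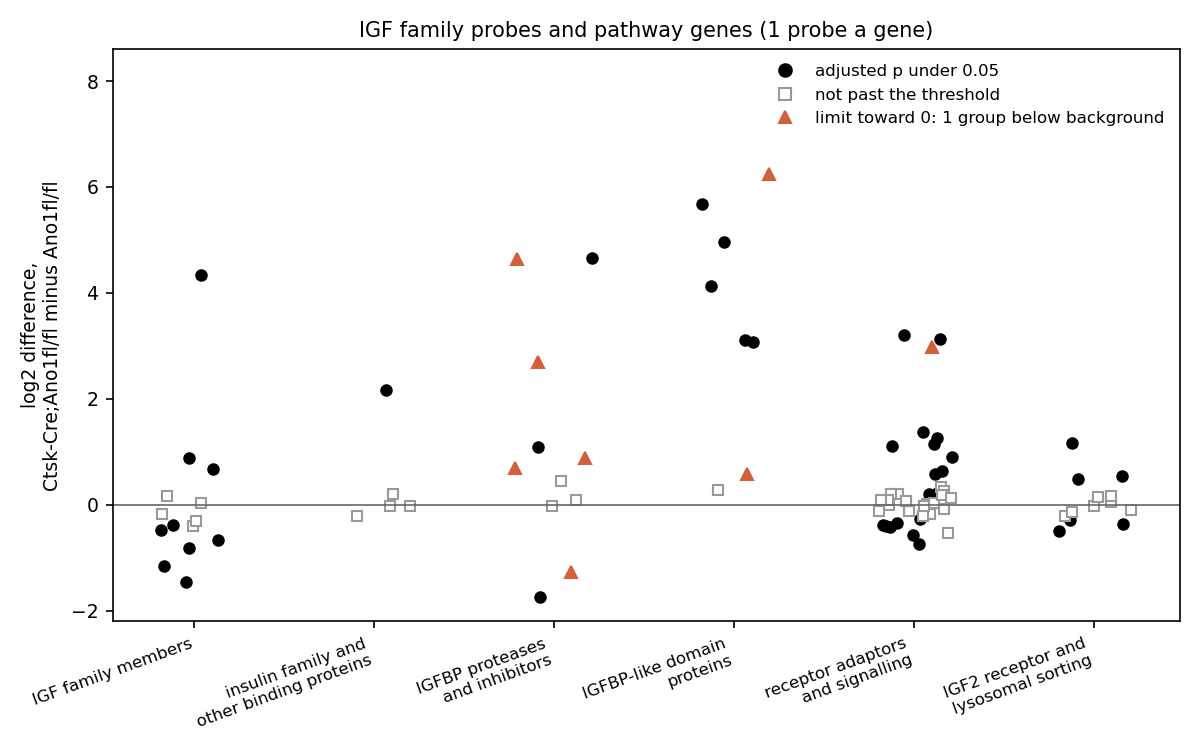
Log2 difference, Ctsk-Cre;Ano1fl/fl minus Ano1fl/fl (y axis), of the 14 tested probes of the IGF family and of 76 tested pathway genes, 1 probe a gene, by list (x axis, with sideways scatter only to separate points). Filled circles passed at an adjusted p under 0.05, open squares did not, and triangles are limits toward 0 for genes that were at background throughout 1 group. Of 8 genes with an IGFBP-like domain, 7 lie above 0.5, up to a limit of 6.24 for Wisp1.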

How the data were processed

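RNA from osteoclast cultures of 3 Ano1fl/fl and 3 Ctsk-Cre;Ano1fl/fl mice was labelled with Cy3 and hybridised to Agilent mouse arrays. The authors deposited, for each array, intensity values read by Agilent Feature Extraction 10.7.1.1: the processed signal, corrected for background, and marks for spots well above background. The value table of the series they deposited holds the median spot intensity of the same arrays and served as an alternative. Control spots were left out, outlier spots were set to missing and 14 probes with a missing value were dropped. Following the methods of the study, log2 processed signals were quantile normalized, then averaged over the spots of a probe. The 31848 probes that every array of 1 or both groups had well above background, by at least 0.5 of a probe's spots, were tested with limma 3.58.1 in R 4.3.3 and the R package data.table (version 1.17.8). Promoters were read with Python 3.11.15 and pandas 2.3.3 and plots drawn with matplotlib 3.10.9.

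The members and gene lists were chosen with earlier results of these data known. The text names every member and, from each list, up to 5 rises and 5 falls past 2-fold, at an adjusted p under 0.05, with groups apart and each array of the brighter group well above background. It also names up to 3 genes most like the members with the largest rise and fall. Irs2, Foxo1, Ptpn1, Htra1, Crim1, Nov, the falls under 2-fold, Gga2, Plaur and the genes that did not pass were named after their values were seen. The values of 2 genes of the signalling list are not reported here. The number of arrays limits the precision, and intervals are 95%. The script was tested on simulated data. In all, 16 alternatives were tried.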

Additional observations from a re-analysis of the deposited data

How the results depend on the processing

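Of 16 alternatives, each changed 1 choice, except that the intensity trend and robust moderation of limma were set together. The count of 3 member probes higher was within 1.5 times of this value in all 16. The count of 6 lower became 2 with one probe per gene, 3 with the methods' t-test (after Benjamini-Hochberg) and 1 with the slide row as a block, a setting chosen after seeing the data in which only the slide row that holds both groups, with 1 control array, bears on the difference. Among the pathway genes, 19 in place of 29 were higher with the filter that asks for all 6 arrays, which tests fewer genes, and the 12 lower became 3 with the slide row as a block. Leaving out 1 array each gave 7 to 11 lower pathway genes. Normexp correction and the deposited value table made the differences of dim pathway genes smaller, by adding an offset and by keeping the background. The cause of the changes with the t-test, the slide row and the left-out arrays was not tested.

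The sign turned for 2 probes that did not pass. Igf1r A_55_P2736764 had -0.032 with the slide row as a block, and -0.036 without Ano1fl/fl array 1 and -0.054 without Ctsk-Cre;Ano1fl/fl array 1 (range without 1 array -0.054 to 0.14), and Igfbp5 A_52_P281702 had 0.56 with the slide row and 0.16 without Ano1fl/fl array 1 (range without 1 array -0.74 to 0.16). The 75th percentile scaling moved the median of all tested probes from -0.09 to -0.14, and 36.3% in place of 41.6% of the called probes were higher. Arrays of the same replicate number did not deviate together (correlations of -0.02, -0.08 and -0.09), and 0 arrays correlated best with their own number. With the replicate block 14150 in place of 16690 probes passed, and Igf1 A_55_P2085979 (adjusted p = 0.0656) and Igfbp3 (0.0599) were lost. All arrays lay on 1 slide, so the slide as a block was not run. Signal over background limits Igf2, Igfbp2, Igfbp5 and the clone probes of Igf1r.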
